A study of Macaca fascicularis with 64 samples.

Results

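The genes examined here form the ATF4 branch of the integrated stress response, the programme that adjusts protein synthesis and amino acid supply when a cell is under stress. They were taken by name from a list of 38 genes of known function in this branch, with no cut on their measured levels. The list was chosen with earlier results of these data known. Of its genes, 36 had a row among the 21041 macaque genes counted. ASNS and PSPH had no row under those symbols and were not analysed here. Their levels were read in the α-, β-, δ- and PP-cells of pancreatic islets from young and old cynomolgus monkeys.

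The material came from 16 healthy, non-diabetic cynomolgus monkeys in 4 groups of 4, namely young females, young males, old females and old males. Young monkeys were 4 to 6 years old and old monkeys 18 to 21 years old, and no monkey was treated. Islets were hand-picked after collagenase digestion of the tail of the pancreas, dissociated, sorted to remove debris, and transferred one by one with a mouth pipette for sequencing with a modified STRT protocol that counts unique molecular identifiers (UMIs), 1 per captured RNA molecule. Each monkey gave 4 libraries and was processed on its own day, so that a difference between monkeys and a difference between days cannot be told apart. The monkey was therefore taken as the replicate, and the UMIs of the cells of 1 type in 1 monkey were summed.

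In a stressed cell, several kinases, among them PERK (encoded by EIF2AK3) at the endoplasmic reticulum, phosphorylate the translation initiation factor eIF2. General translation then falls while the mRNA of the transcription factor ATF4 is translated more efficiently, so that much of the control of ATF4 lies above the level of its mRNA. ATF4, often with DDIT3 (CHOP), raises genes of amino acid synthesis, amino acid import and tRNA charging, and also the feedback genes PPP1R15A (GADD34) and TRIB3 that limit the response. Islet β-cells make very large amounts of insulin in the endoplasmic reticulum and are known to depend on PERK signalling for survival.

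From 6141 barcodes, the 5908 cells with more than 800 detected genes and more than 10000 UMIs were retained. A cell was given the type of its highest hormone mRNA among GCG, INS, SST and PPY, which gave 4503 α-cells, 1219 β-cells, 112 δ-cells and 74 PP-cells. The median depth was 68716 UMIs in α-cells, 78172 in β-cells, 47573 in δ-cells and 48931.5 in PP-cells. All 16 monkeys held at least 5 α-cells and 5 β-cells, 11 held at least 5 δ-cells (7 young and 4 old) and 6 held at least 5 PP-cells (2 young males and 4 old monkeys), and 33 of the 74 PP-cells came from old female 2. Independent markers fitted the names in α-, β- and δ-cells: MAFA, a β-cell transcription factor, was at 116 CPM (counts in every 1000000 UMIs, scaled by the TMM method) in β-cells against 5.79 in α-cells, and HHEX, a δ-cell factor, was at 334 CPM in δ-cells against 2.39 in α-cells. In PP-cells ETV1 was higher than in α-cells (209.6 against 39.9 CPM), whereas the listed PP-cell markers ID4 and AQP3 were lower (1.34 against 20.2 CPM and 0.588 against 3.88 CPM), so that this type is a class by its leading hormone. Hormones of other types were frequent, with GCG at 23398 CPM in β-cells against 77868 CPM in α-cells. The leading hormone had at least 4 times the UMIs of the second in 4204 α-cells, 384 β-cells, 40 δ-cells and 8 PP-cells, and the main differences were refitted on these clear cells alone.

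ATF4 mRNA was detected in most cells of all 4 endocrine types. It was found in 87.9% of α-cells (95% exact interval 86.9 to 88.8), 89.3% of β-cells (87.5 to 91.0), 76.8% of δ-cells (67.9 to 84.2) and 93.2% of PP-cells (84.9 to 97.8). With every cell thinned to 10000 UMIs the shares were 59.5%, 59.9%, 48.2% and 75.7%. These intervals cover counting error over cells alone and not the spread between monkeys.

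ATF4 in α-cells ranged from 102 CPM in old male 3 to 227 CPM in young male 2, with a median of 170 over the 16 monkeys. In β-cells it ran from 92.5 CPM, again in old male 3, to 220 CPM in old female 1, with a median of 140. In δ-cells it lay between 52.6 and 214 CPM (median 142, n = 11), and in PP-cells between 174 and 453 CPM (median 248, n = 6). The ranges of α-, β- and δ-cells overlapped almost wholly, and PP-cells had the highest values.

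PPP1R15A, which recruits the phosphatase that reverses eIF2 phosphorylation, was called between β- and α-cells, δ- and β-cells, and PP- and α-cells. It ranged from 20.7 to 261 CPM in α-cells (median 89.5), from 12.9 to 72.7 in β-cells (median 29.6), from 3.04 to 163 in δ-cells (n = 11) and from 95.5 to 787 in PP-cells (n = 6). Its constitutive relative PPP1R15B averaged 14.98 ± 3.22 CPM in α-cells and 18.3 ± 10.2 CPM in β-cells (SD, n = 16 each).

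DDIT3, the transcription factor CHOP that is linked to stress-induced cell death, averaged 61.0 ± 31.9 CPM in α-cells, 37.5 ± 15.8 in β-cells (SD, n = 16 each), 55.9 ± 78.2 in δ-cells (n = 11) and 151 ± 128 in PP-cells (n = 6). The δ-cell mean rested on young female 3 at 281 CPM, against a median of 32.7 over the 11 monkeys. EIF2AK3 stood at 10.2 ± 2.97 CPM in α-cells and 11.7 ± 6.15 CPM in β-cells, levels that did not separate.

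TRIB3, CHAC1 and ATF5 were near the detection limit. TRIB3, a pseudokinase induced by ATF4 and DDIT3, was seen in 8.62% of α-cells and 4.27% of β-cells, CHAC1, an enzyme that degrades glutathione, in 2.95% of α-cells and 5.99% of β-cells, and ATF5 in 2.27% and 3.45%. None of 112 δ-cells held a CHAC1 UMI, which allows a share of up to 3.24% (exact interval), and none of 74 PP-cells held an ATF5 UMI, which allows up to 4.86%. CEBPB, a transcription factor partner of ATF4, had 24 UMIs, the serine synthesis enzyme PSAT1 5 and the cysteine synthesis enzyme CTH 81 over all 5908 cells, and these 3 genes were filtered out of the comparisons between types, which left 33 members tested.

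**Figure D1:**
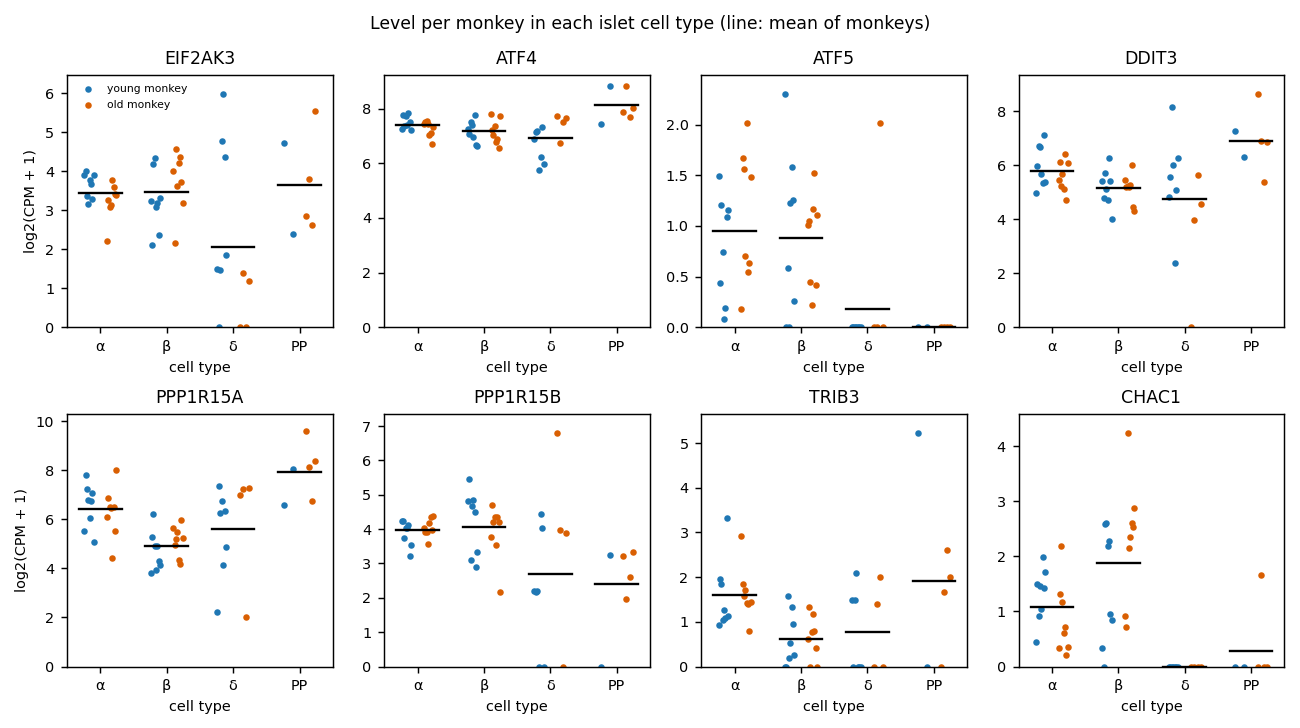
Level of 8 core genes, log2(CPM + 1), by cell type, with 1 point per monkey (blue young, orange old) and a line at the mean of the monkeys. PPP1R15A and TRIB3 sat lower in β-cells than in α-cells in 15 of 16 monkeys, and ATF4 was higher in PP-cells than in α-cells in 6 of 6.

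β-cells and α-cells of the same 16 monkeys were compared in edgeR's quasi-likelihood fit with cell type and monkey as terms, and p-values were adjusted by the Benjamini-Hochberg method over all 12899 genes tested. In β-cells the feedback gene PPP1R15A and the amino acid importer SLC7A5 were lower, while the glutamine carrier SLC38A2 and several tRNA synthetases were higher. Of the 33 members tested, 5 were called higher in β-cells at an adjusted p under 0.05, where 8.66% of all genes were, and 6 were called lower, where 16.3% of all genes were; the other 22 were not called. The median difference of the members was 0.10 (log2) against -0.11 over all genes, so that the members did not move as a block. The comparisons of δ- and PP-cells with α-cells share these α-cell sums.

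PPP1R15A had a mean of 32.8 CPM in β-cells against 103 CPM in α-cells and was lower in β-cells in 15 of 16 monkeys (log2 difference -1.62 ± 0.27, SE; edgeR adjusted p = 2.89e-06). The exception was old male 3, with 61.1 CPM in β-cells and 45.4 in α-cells. On clear cells alone the difference was -1.59 (edgeR adjusted p = 0.00358). TRIB3 averaged 0.645 against 2.46 CPM and was also lower in 15 of 16 monkeys (-2.01 ± 0.57; edgeR adjusted p = 0.00625). STC2, a secreted glycoprotein induced by endoplasmic reticulum stress, fell from 33.4 CPM in α-cells to 16.9 in β-cells (-1.08 ± 0.35; edgeR adjusted p = 0.0168), and was lower in 14 of 16.

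CHAC1 went the other way, at 3.92 CPM in β-cells against 1.31 in α-cells (1.48 ± 0.57; edgeR adjusted p = 0.0512), and just missed the threshold. It passed when any of 6 monkeys was left out (old female 2, young female 1, young female 2, young male 2, young male 3 or young male 4), with adjusted p-values between 0.0251 and 0.106 over the 16 such fits, and in clear cells the difference was 0.31 (edgeR adjusted p = 0.847). The highest β-cell value, 17.9 CPM, belonged to old female 3, with 28 β-cells. The remaining core genes were not called: EIF2AK3 differed by 0.13 ± 0.45, ATF4 by -0.23 ± 0.16, ATF5 by -0.25 ± 0.58, DDIT3 by -0.63 ± 0.30 (edgeR adjusted p = 0.128, lower in β-cells in 12 of 16) and PPP1R15B by 0.21 ± 0.40.

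Genes of amino acid supply split by individual gene. SLC7A5 (LAT1), which imports leucine and other large neutral amino acids, ranged from 6.56 to 23.2 CPM in α-cells (median 14.5) and from 0.355 to 7.62 CPM in β-cells (median 1.38). It was lower in β-cells in all 16 monkeys (-3.14 ± 0.47; edgeR adjusted p = 5.1e-07). The ranges met through 1 β-cell value, that of young female 1, which lay above the lowest α-cell values. SLC3A2, the heavy chain that SLC7A5 and SLC7A11 share, averaged 7.83 CPM in β-cells and 14.2 CPM in α-cells and was not called.

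SLC38A2, the SNAT2 carrier that takes up glutamine and other small neutral amino acids, ranged from 0.546 to 20.7 CPM in α-cells (median 4.03) and from 5.21 to 61.2 CPM in β-cells (median 13.6). It was higher in β-cells in 15 of 16 monkeys (1.66 ± 0.42; edgeR adjusted p = 0.00208), and by 2.36 in clear cells (edgeR adjusted p = 0.00476). Young male 3 had the highest value in both types. SLC7A1, the cationic amino acid carrier, and SLC7A11, the cystine importer, were not called.

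Among the enzymes, PHGDH, which commits glycolytic carbon to serine synthesis, was at 0.982 CPM in β-cells against 6.61 in α-cells (-3.56 ± 0.63; edgeR adjusted p = 1.25e-05) and was lower in 15 of 16 monkeys. In α-cells it varied from 0.0454 CPM in young male 4 to 23.9 CPM in young male 3. CBS, of the transsulfuration route to cysteine, was at 1.07 against 1.81 CPM (fitted difference -2.50 ± 0.67, edgeR adjusted p = 0.00523). It rested on 760 UMIs in 180 of 5908 cells. Its call was lost without old female 3 (adjusted p = 0.0524), old female 4 (0.492) or young male 1 (0.0767), and on clear cells (-1.04, edgeR adjusted p = 0.706). Pooled over monkeys CBS was at 1.78 CPM in β-cells and 1.81 in α-cells. It was detected in 3.69% of β-cells and 2.95% of α-cells, and β-cells of old male 3 reached 10.9 CPM. A lower level in β-cells is therefore not secure for this gene. SHMT2 and MTHFD2 of mitochondrial folate metabolism and ALDH18A1 and PYCR1 of proline synthesis were not called.

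All 9 genes of tRNA charging and export had differences above 0 in β-cells, with a median of 0.51, and 4 of them were called. WARS, the tryptophanyl-tRNA synthetase, averaged 105 ± 31.4 CPM in β-cells and 51.5 ± 14.4 CPM in α-cells (SD, n = 16; 0.93 ± 0.30; edgeR adjusted p = 0.0151), and was higher in 14 of 16 monkeys. SARS (seryl) was at 53.3 against 29.9 CPM (0.85 ± 0.29; edgeR adjusted p = 0.0259), EPRS (glutamyl-prolyl) at 182 against 118 CPM (0.64 ± 0.20; edgeR adjusted p = 0.0109) and NARS (asparaginyl) at 194 against 132 CPM (0.54 ± 0.14; edgeR adjusted p = 0.00349). On clear cells WARS (0.83) and EPRS (0.73) kept their calls, whereas SARS (edgeR adjusted p = 0.129) and NARS (0.0516) did not. Of these 11 calls between β- and α-cells, 10 held whichever monkey was left out, and 6 held in every alternative tried, namely PPP1R15A, PHGDH, SLC7A5, SLC38A2, WARS and EPRS.

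**Figure D2:**
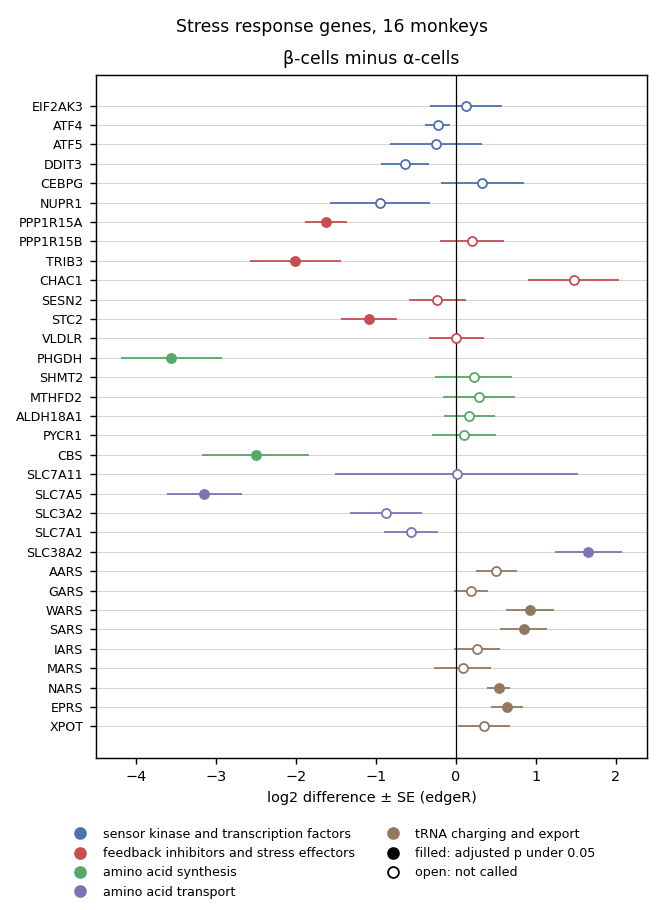
Difference between β- and α-cells for the 33 members tested (log2, points with SE bars from edgeR, 16 monkeys), coloured by role; filled points had an adjusted p under 0.05. The 9 tRNA genes all lie right of 0, while SLC7A5, PHGDH, CBS, TRIB3 and PPP1R15A lie left of -1.5. For CBS the pooled levels were close, at 1.78 CPM in β-cells and 1.81 in α-cells.

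Genes around the members were read from lists of known function. Of 30 tested among the other genes of the pathway (the remaining eIF2 kinases, eIF2 and eIF2B subunits, further ATF4-linked genes and the other cytosolic tRNA synthetases), 4 were higher in β-cells and 2 lower. ATF3, a stress-induced transcription factor, was at 6.13 against 32.4 CPM (-2.32 ± 0.45; edgeR adjusted p = 6.59e-05), EIF2AK2, the double-stranded RNA kinase PKR, at 29.2 against 12.1 CPM (1.20 ± 0.42; edgeR adjusted p = 0.0264), and HERPUD1, of endoplasmic reticulum protein degradation, at 313 against 171 CPM (0.89 ± 0.18; edgeR adjusted p = 1.07e-04). LARS (0.67) and EIF2S2 (0.47) were higher and VARS (-0.75) was lower. Of 15 genes of the ATF6 and IRE1 branches of the unfolded protein response, a theme the study drew from these samples, 6 were called higher in β-cells (DNAJC3, DNAJB9, PDIA4, MANF, PDIA6 and SEL1L) and none lower, with a median of 0.71; since the study chose this theme on these samples, the count is not independent evidence of its direction.

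PPP1R15A and ATF3 moved with genes that respond within minutes to handling. Of 10 immediate-early and heat shock genes tested, which are known to rise when tissue is dissociated, 8 were lower in β-cells with a median of -1.96. FOS was at 268 CPM in β-cells against 1298 CPM in α-cells (-2.24 ± 0.17; edgeR adjusted p = 6.81e-16), in all 16 monkeys. The part of dissociation in the difference of PPP1R15A was not tested.

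δ-cells and PP-cells rested on far fewer cells, and their values scattered more. In δ-cells 1 member was called higher than in α-cells, where 4.36% of all genes were, and 8 were called lower, where 18.9% were; 29 of the 33 members lay below 0, with a median of -0.74 against -0.47 over all genes. SLC38A2 was again the member above α-cells, at 18.5 against 6.56 CPM in the 11 monkeys with enough δ-cells (1.67 ± 0.52; edgeR adjusted p = 0.015), although it was higher in 7 of 11 monkeys only and its call was lost without old female 2 (adjusted p = 0.0595).

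Carriers and enzymes made up most of the members that were lower in δ-cells. SLC3A2 fell from 14.02 to 2.19 CPM and was lower in 11 of 11 monkeys (-2.74 ± 0.70; edgeR adjusted p = 0.00338), SLC7A5 was at 4.98 against 14.6 CPM (-2.12 ± 0.62; edgeR adjusted p = 0.0106) and SLC7A1 at 13.4 against 44.5 CPM (-1.83 ± 0.46; edgeR adjusted p = 0.00284). PYCR1 was at 8.82 against 18.9 CPM (-2.05 ± 0.57; edgeR adjusted p = 0.00707), and STC2 at 14.1 against 35.3 CPM (-1.52 ± 0.46; edgeR adjusted p = 0.0122). PHGDH had 3 UMIs in all δ-cells, so that α-cells, pooled over all 16 monkeys, were 11.8-fold higher with a counting interval of 4.03 to 57.1.

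CHAC1 and CBS had no UMI in the δ-cells of the 11 monkeys tested. The α-cell levels pooled over all 16 monkeys were at least 2.24-fold and 3.14-fold above a floor of 3 UMIs in δ-cells (0.578 CPM). These bounds are not paired within monkeys. The α-cell level of CBS was highest in old female 4 (6.95 CPM), old male 3 (6.05) and old female 3 (4.93), which had too few δ-cells to be among the 11. The call of CHAC1 was lost without old female 2 (adjusted p = 0.0561) or young male 2 (0.0544). That of CBS was lost without old female 1 (0.0541), old male 4 (0.058), young female 2 (0.0512), young male 1 (0.067) or young male 2 (0.0919). SLC7A1 was the member whose call held in every alternative tried.

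Of the core genes in δ-cells, ATF4 averaged 133 CPM against 179 CPM in α-cells of the same monkeys (-0.47 ± 0.19; edgeR adjusted p = 0.0726), and passed the threshold without old female 1 (0.0399) or old male 2 (0.045). DDIT3 (-0.80 ± 0.38) passed without young female 3 (0.029) and ATF5 (1 UMI in δ-cells) without old male 2 (0.0352). For ATF5 the α-cells, pooled over all 16 monkeys, were 5.83-fold higher (counting interval 1.05 to 230). PPP1R15A (-0.68 ± 0.31), PPP1R15B (-0.59 ± 0.54), TRIB3 (-1.41 ± 0.85) and EIF2AK3 (-0.81 ± 0.62) were not called. RNA of other cells differed by list. Mean summed markers were higher in δ- than in α-cells for acinar (475 against 196 CPM) and Schwann cells (87.8 against 7.86), not paired within monkeys. They were lower for duct (22.8 against 41.2), stellate (6.55 against 19.1), endothelial (12.9 against 19.2) and immune cells (8.34 against 16.6). The 5 acinar markers in the files, of 8 listed, summed to between 57.7 and 1210 CPM in δ-cells, none of the 5 at 0. In α-cells they summed to between 0.742 and 57.3 CPM in old monkeys and between 2.40 and 2914 CPM in young ones. The 4 Schwann cell markers summed to between 0 and 355 CPM in δ-cells, where SOX10 and CDH19 were at 0, and to between 0.613 and 22.5 CPM in α-cells. Their part in these differences was not tested.

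Against β-cells, 1 member was called higher in δ-cells (5.26% of all genes) and 8 lower (14.5% of all genes), with a member median of -0.76 against -0.35 over all genes. PPP1R15A was the higher one, at 82.7 against 31.7 CPM and in 9 of 11 monkeys (0.95 ± 0.32; edgeR adjusted p = 0.0299), but the call was lost without old female 2 (0.124), old male 4 (0.0788), young female 2 (0.0683), young female 4 (0.0745) or young male 2 (0.0591). CHAC1 was at least 5.82-fold lower in δ-cells than in β-cells pooled over all 16 monkeys, a bound that is not paired within monkeys. Its call in the paired fit held whichever monkey was left out, but was lost on clear cells (edgeR adjusted p = 0.476). Of the 9 genes of tRNA charging and export, 5 were called lower in δ-cells, and IARS (54.2 against 54.8 CPM), MARS, NARS and XPOT were not called. WARS was at 46.7 against 98.4 CPM (-1.69 ± 0.40; edgeR adjusted p = 0.0017), SARS at 21.2 against 52.4 CPM (-1.41 ± 0.40; edgeR adjusted p = 0.00789), AARS at 45.9 against 100.8 CPM (-1.39 ± 0.35; edgeR adjusted p = 0.00263) and EPRS at 106 against 184 CPM (-0.90 ± 0.24; edgeR adjusted p = 0.0063).

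PYCR1 was lower in δ- than in β-cells by 2.15 on the log2 scale (-2.15 ± 0.58; edgeR adjusted p = 0.00562). SLC7A1 (-1.27 ± 0.47; edgeR adjusted p = 0.0456) and GARS (-0.72 ± 0.27; edgeR adjusted p = 0.0478) were at the edge, and leaving out 1 monkey ended the call in 12 and 14 of 16 fits, with adjusted p-values up to 0.118 and 0.115. SLC7A1 held without old male 1, old male 2, young female 3 or young male 1, and GARS without old female 1 or old male 2. In clear cells AARS (0.37) and GARS (0.69) were higher in δ-cells than in β-cells and neither was called. PPP1R15A (edgeR adjusted p = 0.148), PYCR1 (0.184), SARS (0.343), EPRS (0.0513) and SLC7A1 (0.065) also lost their calls there. Only the call of WARS held in every alternative tried. EIF2AK3 (-0.94 ± 0.63), ATF4 (-0.24 ± 0.19), ATF5 (1 UMI in δ-cells), DDIT3 (-0.17 ± 0.39), PPP1R15B (-0.80 ± 0.55) and TRIB3 (0.59 ± 0.89) were not called; PPP1R15B passed without old female 1 (0.0488).

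PP-cells stood out for the pair of PPP1R15A and DDIT3. Of the 33 members, 2 were called higher than in α-cells (1.78% of all genes) and 2 lower (4.82% of all genes). PPP1R15A averaged 311 CPM in PP-cells and 105 CPM in α-cells of the same 6 monkeys and was higher in all 6 (1.54 ± 0.38; edgeR adjusted p = 0.00831). Its highest value, 787 CPM, was in old female 1, which had 8 PP-cells, and the call was lost without old female 1 (0.062) or young male 4 (0.0701). DDIT3 averaged 151 against 58.9 CPM and was higher in 5 of 6 monkeys (1.65 ± 0.44, edgeR adjusted p = 0.015). Its highest value of 401 CPM was again in old female 1, without which the adjusted p was 0.0781. The PP-cells of old female 1 also had the highest summed acinar (322 CPM, mean of monkeys 74.1), stellate (140, mean 31.2) and Schwann cell markers (8.36, mean 1.86). Duct, endothelial and immune markers were highest in other monkeys. The part of RNA of other cells in these 2 differences was not tested.

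ATF4 was higher in PP-cells in all 6 monkeys, at 297 against 161 CPM, without passing the threshold (0.71 ± 0.24; edgeR adjusted p = 0.0637), and it passed without old female 1 (0.0494), young female 4 (0.0421) or young male 3 (0.041). SLC7A5 was lower in PP-cells at 2.61 against 16.4 CPM (-2.90 ± 0.85; edgeR adjusted p = 0.0281), a call lost without old female 2 (0.0581), old male 4 (0.062) or young male 4 (0.0739). NARS was at 84.3 against 139 CPM (-0.76 ± 0.23; edgeR adjusted p = 0.0353), a call lost without old female 1 (0.128) or young male 4 (0.0852). With at least 10 PP-cells required, 1 monkey was left, too few to test these calls.

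The other core genes were not called in PP-cells: EIF2AK3 (0.56 ± 0.70), PPP1R15B (-1.88 ± 0.76, lower in all 6 monkeys), TRIB3 (1.01 ± 1.00) and CHAC1 (3 UMIs). For CHAC1 the α-cells, pooled over all 16 monkeys, were 1.39-fold higher (counting interval 0.475 to 6.73). ATF5 had 0 UMIs in PP-cells, where 3 UMIs would be 0.931 CPM against a pooled α-cell level of 1.12 CPM, so that a lower level was not detectable at this depth. The median of the members was -0.74, or -0.71 with ATF5 at that floor, against -0.37 over all genes. Of the neighbouring genes HERPUD1 was higher (0.99 ± 0.27; edgeR adjusted p = 0.0186) and EIF2B3, an eIF2B subunit, lower (-1.82 ± 0.52; edgeR adjusted p = 0.024). Of the 10 immediate-early and heat shock genes, 9 lay above 0 in PP-cells and FOSB was called, at 458 against 104 CPM (2.58 ± 0.37; edgeR adjusted p = 1.6e-06), and their part in the PPP1R15A and DDIT3 differences was not tested.

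**Figure D3:**
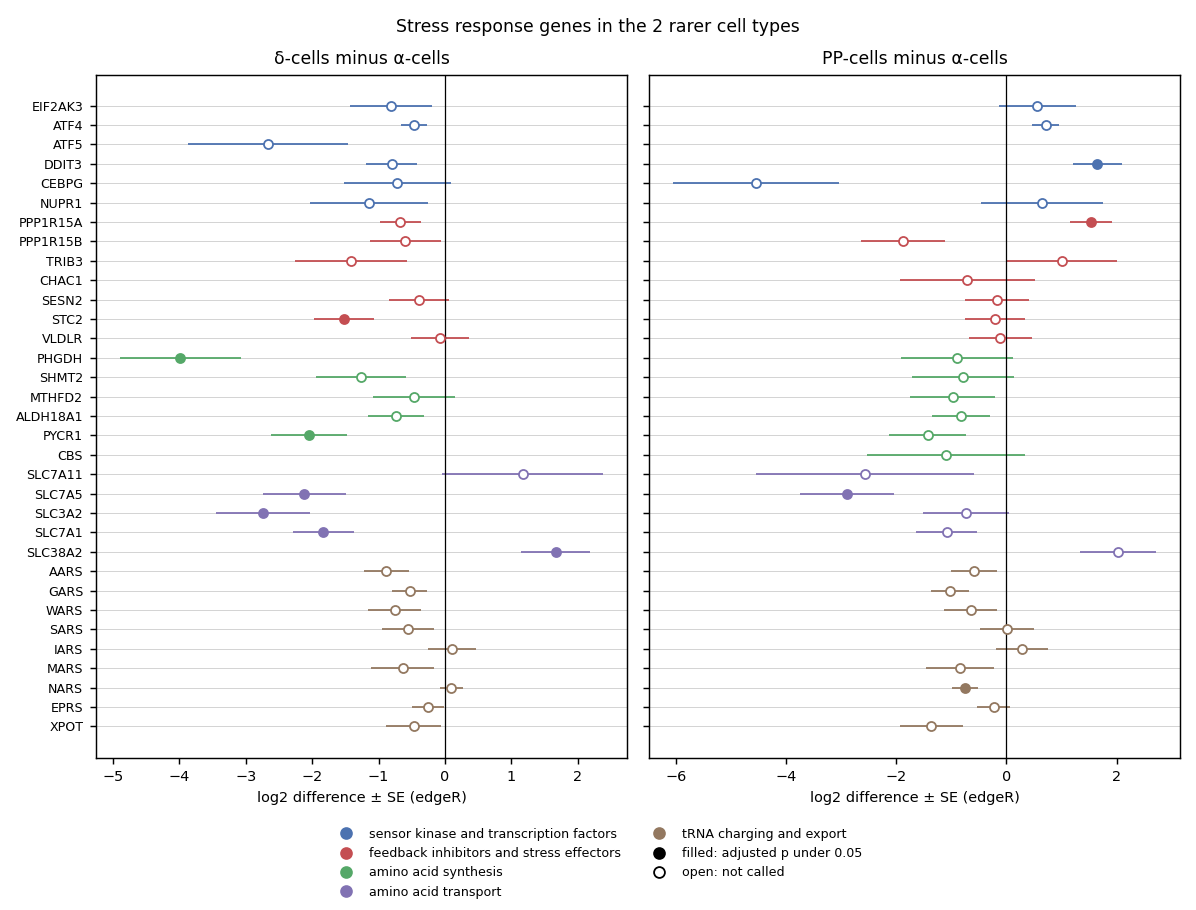
Differences of δ-cells (11 monkeys) and PP-cells (6 monkeys) from α-cells for the members tested (log2 ± SE, edgeR), which share the same α-cell sums; filled points had an adjusted p under 0.05, and members with no UMI in the rarer type (CHAC1 and CBS in δ-cells, ATF5 in PP-cells) are left out. In δ-cells the carriers SLC7A5, SLC3A2 and SLC7A1 are low and SLC38A2 is high, and in PP-cells DDIT3 and PPP1R15A are the filled points to the right.

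With age, no member was called in any type. Old and young monkeys were compared within each type in edgeR with sex as a second term, over 33 members in α-cells, 26 in β-cells, 15 in δ-cells and 17 in PP-cells. The share of all genes called was 0% in α-cells, 0.047% in β-cells, 0% in δ-cells and 0% in PP-cells, so that few genes of any kind passed this test over monkeys. At an unadjusted p under 0.05 there were 3 of 33 members in α-cells, against 886 of 12916 genes, and none in β-, δ- or PP-cells, and DESeq2 and limma called none either. The median difference of the members, old minus young, was -0.08 in α-cells and -0.06 in β-cells.

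ATF4 in α-cells averaged 155 ± 29.1 CPM in old and 183 ± 30.6 CPM in young monkeys (SD, n = 8 each). The old values ran from 102 to 186 CPM and the young values from 148 to 227 CPM, so that the groups overlapped between 148 and 186 CPM (-0.26 ± 0.13; edgeR adjusted p = 0.73). In β-cells the means were 149 and 147 CPM (0.00 ± 0.20). For DDIT3, α-cells of old monkeys averaged 51.1 ± 20.6 CPM and those of young monkeys 70.8 ± 39.2 CPM (-0.47 ± 0.31; edgeR adjusted p = 0.82), where young male 3 at 139 CPM was the highest, and β-cells averaged 36.1 ± 13.6 and 39.0 ± 18.6 CPM (-0.12 ± 0.30).

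EIF2AK3 was lower in old α-cells at 8.82 against 11.7 CPM, with 1 of 8 old monkeys above the young median (-0.44 ± 0.23; edgeR adjusted p = 0.763), and was at 13.7 against 9.57 CPM in β-cells, with 6 of 8 old monkeys above it (0.53 ± 0.43; edgeR adjusted p = 0.992). Neither was called, and the difference between the types was not called either (0.95 ± 0.53; edgeR adjusted p = 0.861). PPP1R15A differed by -0.12 ± 0.42 in α-cells and 0.40 ± 0.33 in β-cells, PPP1R15B by 0.13 ± 0.19 and -0.40 ± 0.40, and CHAC1 by -0.89 ± 0.67 and 1.05 ± 0.71. TRIB3 (-0.15 ± 0.58) and ATF5 (0.70 ± 0.69) had enough UMIs for this test in α-cells only.

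The 3 members at an unadjusted p under 0.05 in α-cells were SLC38A2, CEBPG and NUPR1, and all had lower means in old monkeys. SLC38A2 averaged 3.29 CPM in old and 7.51 CPM in young α-cells (-1.25 ± 0.49; edgeR adjusted p = 0.705). In β-cells it averaged 11.7 against 22.6 CPM, and all 8 old monkeys lay below the young median (-0.89 ± 0.43; edgeR adjusted p = 0.902). CEBPG, a transcription factor that pairs with ATF4, was at 3.77 against 5.94 CPM in α-cells (-0.65 ± 0.30; edgeR adjusted p = 0.721).

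NUPR1, a stress-induced chromatin protein that is also abundant in acinar cells under stress, averaged 2.32 CPM in old and 22.4 CPM in young α-cells (-3.11 ± 1.01; edgeR adjusted p = 0.689). The young mean rested on young female 2, at 138 CPM against 0 to 20.9 CPM in the other 15 monkeys. In that monkey 1474 of 2736 NUPR1 UMIs (53.9%) lay in 1 cell, in which markers of acinar and other non-islet cells took 10.2% of the UMIs, and the α-cells of this monkey also had the highest summed acinar markers, 2914 CPM. Without the 3 of its 362 α-cells in which such markers exceeded 0.5% of the UMIs, the NUPR1 level was 14.6 CPM without TMM scaling, within the range of the other monkeys (0 to 20.99). Refitted without cells over this limit in any monkey, the age difference was -2.66 (edgeR adjusted p = 0.676), nearly as large as with them. Acinar markers in the α-cells of young female 2 still summed to 550 CPM without those 3 cells, against at most 57.3 CPM in the α-cells of old monkeys. The part of this RNA in the remaining difference was not tested.

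**Figure D4:**
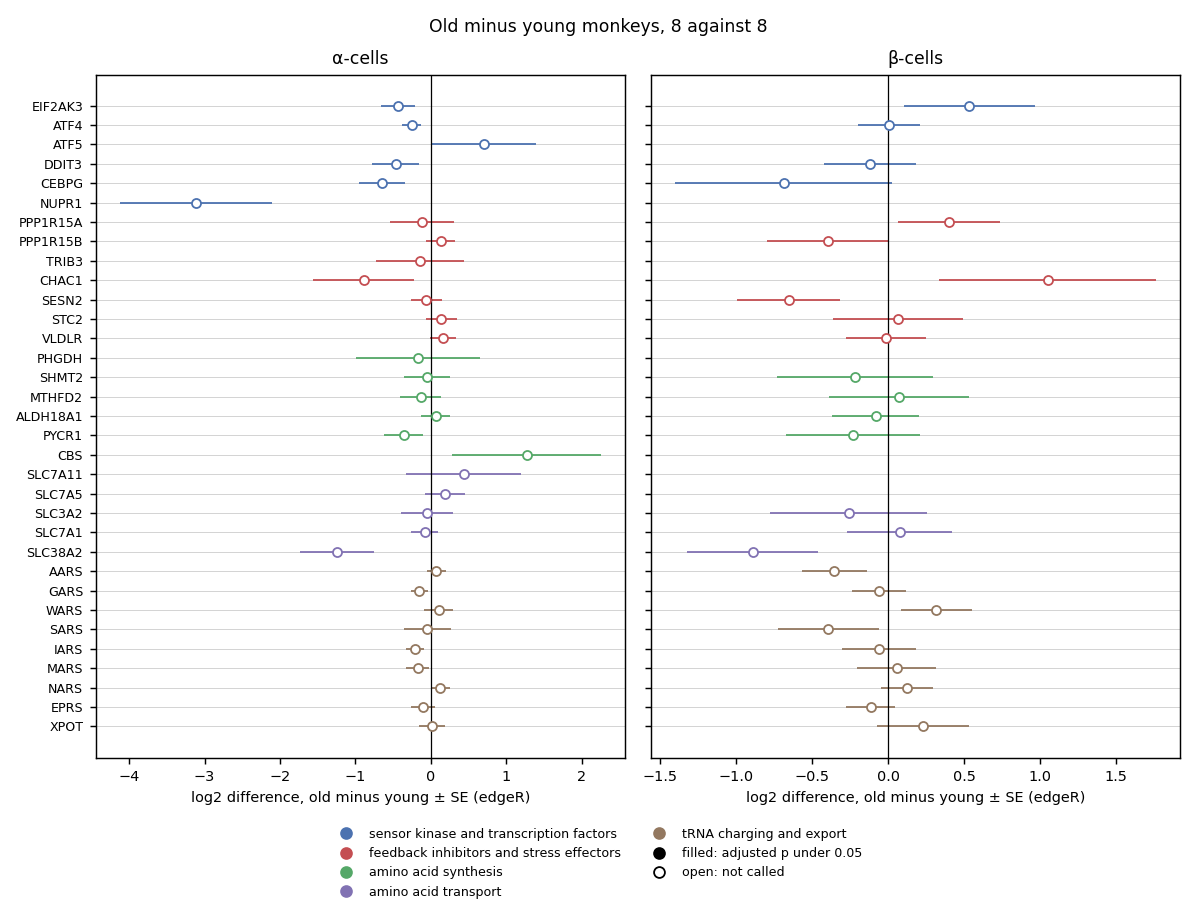
Difference between old and young monkeys (log2, old minus young, ± SE, edgeR, 8 against 8) for the members tested in α-cells (left) and β-cells (right), coloured by role. All points are open, since none had an adjusted p under 0.05, and the x axes differ in scale.

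In the rarer types the age test had 7 young and 4 old monkeys (δ) and 2 young and 4 old (PP). Both young monkeys with enough PP-cells were males, so with sex as a term the PP-cell age differences rested on the males alone. For DDIT3 young male 1 and young male 4 were at 152 and 78.2 CPM, and old male 2 and old male 4 at 40.8 and 115 CPM. Old female 1 and old female 2, at 401 and 118 CPM, did not enter the age difference. ATF4 differed by 0.72 ± 0.50 in δ-cells and -0.39 ± 0.64 in PP-cells, DDIT3 by -1.64 ± 1.18 and -0.49 ± 0.82, and PPP1R15A by 0.78 ± 0.78 and 0.29 ± 0.66. EIF2AK3 was tested in PP-cells alone (0.85 ± 2.13). None was called, and with SEs of this size differences as large as these were not detectable.

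The effect of age was not called as differing between β- and α-cells for any of 32 members (0% of all genes were called), nor between the sexes for 33 members in α-cells (0.00707% of all genes) or 29 in β-cells (0%). At an unadjusted p under 0.05 stood CHAC1 between types (2.12 ± 0.93; edgeR adjusted p = 0.768), CHAC1 between sexes in α-cells (-2.80 ± 1.16; edgeR adjusted p = 0.873) and ALDH18A1 between sexes in β-cells (1.11 ± 0.53; edgeR adjusted p = 0.9998). In α-cells CHAC1 averaged 0.398 CPM in old and 1.999 CPM in young males, with all 4 old males below the young male median, and 1.65 CPM in old and 1.20 CPM in young females. The difference of the age effect between males and females was not called for other core genes in α-cells, with ATF4 at -0.41 ± 0.24, DDIT3 0.22 ± 0.64, PPP1R15A 0.82 ± 0.84 and TRIB3 -2.01 ± 1.04.

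The share of cells that held a member's mRNA was compared over monkeys at 1 depth, with every cell thinned to 10000 UMIs. DDIT3 was found in 24.6% ± 7.40 of young and 20.8% ± 8.96 of old α-cells (SD over 8 monkeys each; two-sided exact permutation test, p = 0.371) and in 17.1% and 18.1% of β-cells (exact p = 0.806). ATF4 was found in 63.2% and 55.4% of α-cells (exact p = 0.11) and in 61.7% and 57.6% of β-cells (exact p = 0.324). TRIB3 stood at 1.37% and 1.77% of α-cells (exact p = 0.31) and 0.681% and 0.49% of β-cells (exact p = 0.626).

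CHAC1 was found in β-cells in 1.66% of young and 4.14% of old cells at equal depth (exact p = 0.268) and 4.22% and 10.1% before thinning (exact p = 0.0617). In α-cells the shares were 0.652% and 0.738% (exact p = 0.701). None of these 8 comparisons at equal depth passed 0.05 even unadjusted. Median depth per cell was 68732 UMIs in young and 72393 in old monkeys (mean of monkeys; exact p = 0.609).

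The other lists were read in the same age tests. Of 15 genes of the ATF6 and IRE1 branches, 14 lay above 0 in old β-cells with a median of 0.63, and 9 had an unadjusted p under 0.05, against 589 of the 10628 genes tested, but none was called. Here too the list is not independent evidence of its direction. The ATF4-branch members had a median of -0.06 in the same test and none at an unadjusted p under 0.05, and a test of the difference between the lists was not made. Of the 10 immediate-early and heat shock genes none lay above 0 in old α-cells (median -0.24), and none was called. Of the other pathway genes 3 of 31 in α-cells and 1 of 29 in β-cells had an unadjusted p under 0.05.

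Members differed in how far the individual monkey set their level. In α-cells each of the 64 libraries held 32 to 95 cells, so the spread between the 4 libraries of a monkey could be set beside that between monkeys. For PPP1R15A 0.748 of the variance of log2(CPM + 1) lay between monkeys, for SARS 0.706, for NARS 0.535, for ATF4 0.533, for DDIT3 0.532 and for EPRS 0.467. For EIF2AK3 (0.156), TRIB3 (0.123) and CHAC1 (0.0007) most of it lay between libraries of the same monkey. The same held for the other tRNA synthetases, with WARS at 0.330, MARS at 0.137, AARS at 0.0691, GARS at 0.0536 and IARS at -0.0525. TRIB3 and CHAC1 had library medians of only 1.53 and 0.543 CPM. The part of counting error in the spread between libraries was not tested. TRIB3 was at 14.2, 1.52, 20.4 and 1.35 CPM in the 4 libraries of young male 3, where 74 of 162 UMIs lay in 1 cell, and at 12.4, 0, 14.6 and 1.42 CPM in those of old female 1, where 60 of 98 did.

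The levels of a member in α- and β-cells of the same monkey were related about as often as those of other genes. Over the 16 monkeys the level in α-cells and in β-cells correlated above 0 for 29 of 32 members, with a median Pearson r of 0.32, where the median over all 12137 genes was 0.27 and 81.2% lay above 0. SARS (r = 0.75, rho = 0.67, permutation test over 16 monkeys, adjusted p = 0.0244) and NUPR1 (r = 0.71, rho = 0.64, permutation test, adjusted p = 0.0347) were called, where 6.88% of all genes were. Without the 2 monkeys farthest from the median the r of SARS was 0.62 and neither gene was called. SARS gave 0.88 within young and 0.48 within old monkeys, and 0.25 over the 11 monkeys with enough clear cells. For ATF4 r was 0.53 (permutation test, adjusted p = 0.173), for PPP1R15A 0.40 and for DDIT3 0.24. Both types of a monkey share the day, the dissociation and the libraries.

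The α-cell level of ATF4 followed the immediate-early genes from monkey to monkey. Against the mean log2(CPM + 1) of 12 immediate-early and heat shock genes, ATF4 had a Pearson r of 0.87 and a Spearman rho of 0.75 over 16 monkeys, with a permutation p of 1e-05, the smallest the resamples could give, and an adjusted p of 0.0215. It was 1 of 9 genes called among 12916 (0.0697%), and 4 of those 9 belong to the list itself (EGR1, FOS, FOSB and ZFP36); ATF3, EGR2, GADD45B and ENSMFAG00000000455 were the others. The r of ATF4 was 0.74 without the 2 monkeys farthest from the median, 0.80 within young and 0.89 within old monkeys.

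PPP1R15A had an r of 0.80 and a rho of 0.80 (permutation test, adjusted p = 0.143), with 0.77 without the 2 farthest monkeys, 0.88 within young and 0.77 within old monkeys. Both genes were named after their values were seen. DDIT3 (r = 0.58, rho = 0.45; permutation test, adjusted p = 0.66) and CHAC1 (r = 0.59, rho = 0.53; permutation test, adjusted p = 0.66) also had an unadjusted p under 0.05, with r of 0.36 and 0.42 without the 2 farthest monkeys, and were not called. These 4 were the members at that threshold, and over all 33 members the median r was 0.04, with 19 above 0. In β-cells 0% of all genes were called, ATF4 had an r of 0.23, PPP1R15A of 0.25, and the median over 26 members was -0.07. The list itself averaged 6.59 ± 0.47 in the α-cells of young monkeys and 6.22 ± 0.62 in those of old monkeys (SD, n = 8 each), so the order of the α-cell means of ATF4 by age was the same as that of the list, and its part in that difference was not tested.

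**Figure D5:**
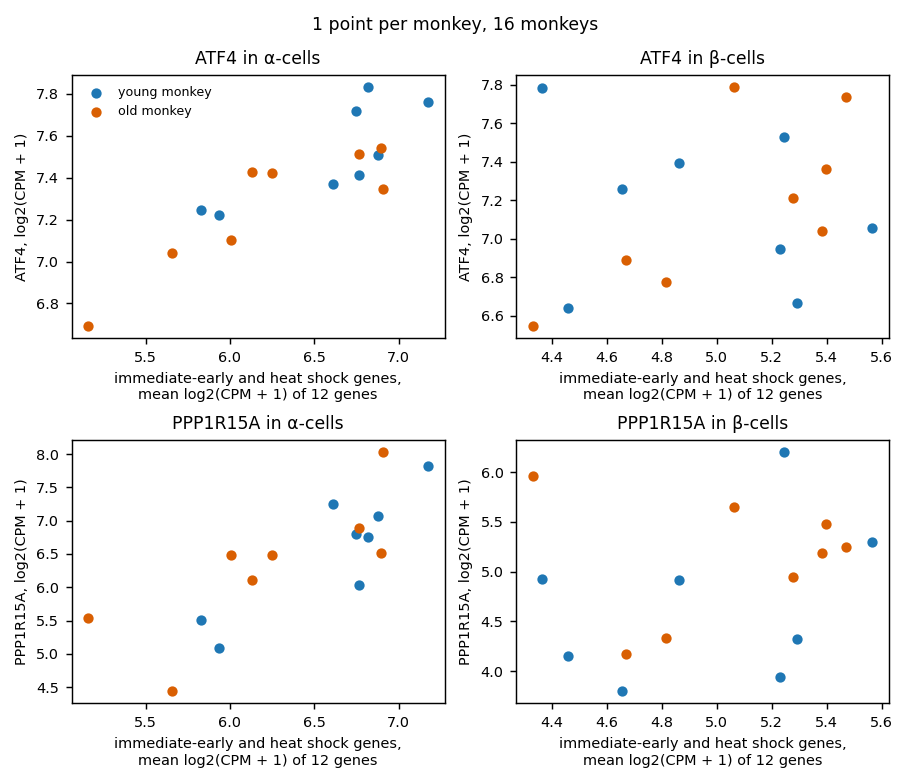
ATF4 (top) and PPP1R15A (bottom), log2(CPM + 1), against the mean log2(CPM + 1) of 12 immediate-early and heat shock genes, in α-cells (left) and β-cells (right), with 1 point per monkey. In α-cells ATF4 climbs along the axis in young and old monkeys alike (r = 0.87), and in β-cells the points scatter (r = 0.23).

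From cell to cell the members were nearly unrelated in α-cells. Among 24 members detected widely enough in α-cells, the 276 pairs had a median r over monkeys between -0.04 and 0.07, and none exceeded 0.1. The immediate-early pair FOS and EGR1 gave 0.32 in the same cells, and PPP1R15A with FOS gave 0.13, above 0 in 15 of 16 monkeys. In β-cells IARS with MARS gave 0.115 (above 0 in 12 of 15 monkeys) and VLDLR with XPOT -0.114 (above 0 in 5 of 15). These are correlations across cells in sparse counts, whose points share library and depth, and are given as a description. How far few cells held the UMIs of a gene varied between monkeys. The 10% of α-cells with the most UMIs of the gene held from 45.8% (old male 2) to 95.6% (old female 1) of the DDIT3 UMIs and from 43.1% (young female 2) to 82.3% (young male 3) of the PPP1R15A UMIs.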

How the data were processed

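Single islet cells of 16 monkeys (64 libraries) were measured by modified STRT-seq. The deposited tables hold UMI counts per gene and cell, which the authors made by demultiplexing, alignment and counting; the labels name CASAVA 1.8 and TopHat2 2.0.12 and the genome Macaca_fascicularis_5.0. Cells with over 800 genes and 10000 UMIs were kept and typed by their highest hormone. Spike-in RNAs (95 rows, 5.41% of UMIs) stayed out of library sizes. No cell name occurred in more than 1 library, and no doublet caller was run on these individually picked cells. The 16 monkeys gave 20719761 to 34053080 UMIs each. Intervals and floors cover counting error only. Folds given with a floor or a counting interval compare types pooled over all their monkeys and are not paired.

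UMI counts were summed per monkey and type (at least 5 cells) and tested in edgeR 4.0.16 (TMM, quasi-likelihood, low counts filtered), with monkey as a term between types, and sex and age within a type; a monkey is 1 replicate. P-values were adjusted over all genes by the Benjamini-Hochberg method. Levels are TMM-scaled CPM unless stated, and log values are log2(CPM + 1). Correlations and shares used permutation tests, with 100000 resamples or exact. DESeq2 1.42.0 and limma 3.58.1 were alternatives. Scripts ran in R 4.3.3 and Python 3.11.15 (scipy 1.17.1) and were tested on simulated data. Other alternatives were no filter, thinned cells, clear cells, cells without markers of other types or without the highest 5% of depth, hormones left out, a stricter cell filter (2000 genes, 20000 UMIs), 10 cells per monkey, and each monkey left out.

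The members and lists were chosen with earlier results of these data known. Named genes were EIF2AK3, ATF4, ATF5, DDIT3, PPP1R15A, PPP1R15B, TRIB3, CHAC1 and ASNS in every comparison, up to 12 further called members by size of change, and up to 6 called genes of the other pathway list. Lists covered the other pathway genes, the unfolded protein response, dissociation genes and markers of endocrine and other pancreatic cells. Summed markers averaged between 6.43 and 31.2 CPM in every type for stellate, endothelial and immune cells, and between 22.8 and 41.2 CPM for duct cells; GHRL, of ε-cells, averaged between 86.3 and 161 CPM.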

Additional observations from a re-analysis of the deposited data

Results flagged for a closer look

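Among 118 groups of 4 to 8 monkeys, 10 held a member whose highest or lowest monkey stood apart from the others of its group. The gap exceeded Dixon's 95% limit on the log2(CPM + 1) scale, although the levels below are in CPM. Chance flags about 1 in 20 groups. In α-cells EIF2AK3 was low in old female 1 at 3.66 CPM, where the other old monkeys lay between 7.48 and 12.6 CPM. TRIB3 was high in young male 3 at 9.08 CPM, against 0.905 to 2.87 CPM in the other young monkeys, and 74 of its 162 UMIs lay in 1 cell.

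The remaining 8 were in β-cells, where several of these monkeys had few cells. Old male 4, with 22 β-cells, was low for PPP1R15B at 3.47 CPM (others 10.6 to 24.9) and for STC2 at 4.63 CPM (others 12.2 to 26.6). Old female 3, with 28, was low for MTHFD2, a mitochondrial folate enzyme, at 0.717 CPM (others 8.54 to 35.7). Young female 3, also with 28, was low for PYCR1 at 1.00 CPM (others 14.4 to 48.4) and for SLC7A1 at 4.51 CPM (others 20.7 to 45.4). Old male 1, with 83, was low for IARS, the isoleucyl-tRNA synthetase, at 27.7 CPM (others 46.4 to 71.8). Young male 3, with 44, was low for MARS, the methionyl-tRNA synthetase, at 14.4 CPM (others 36.0 to 64.1) and high for EPRS at 291 CPM (others 152 to 191). The part of cell number in these values was not tested.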

How the results depend on the processing

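Of 391 recomputed counts and shares 353 stayed within 1.5 times or 1 SD of the reported value; of the single members 2348 kept direction and side of the threshold, 111 lost their call, 30 gained one and 2 changed sign. Clear cells only gave 3 members higher in β- than in α-cells, 0 higher and 3 lower in δ- than in α-cells, and 0 higher and 3 lower in δ- than in β-cells, where AARS (0.37) and GARS (0.69) changed sign; for PP-cells they gave no value. Thinned cells gave 3 lower in β-cells, 0 lower in PP-cells and 0 higher in δ- than in β-cells. limma gave 8 higher in β-cells, 0 lower in PP-cells, and 0 higher and 13 lower in δ- than in β-cells. DESeq2 gave 4 higher and 4 lower in PP-cells. Without possible doublets 1 was lower in PP-cells. With 10 cells per monkey, 0 were higher in δ-cells than in α- or β-cells, and 0 were higher or lower in PP-cells, where 1 monkey was left and the count says nothing of stability; the stricter cell filter gave 0 higher in δ- than in β-cells. The cause was not tested.

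With no replicate block between types, 5 members were higher and 5 lower in β-cells, 2 and 6 in δ-cells, 4 and 2 in PP-cells, and 2 and 8 in δ- against β-cells. For age, numbers shared between young and old monkeys did not pair them (r of deviations -0.05 to 0.15 in α-cells, -0.11 to 0.07 in β-cells), and the replicate block gave 0 calls in every type. Leaving out each monkey gave 5 to 6 higher and 5 to 6 lower in β-cells, 0 to 1 and 6 to 10 in δ-cells, 1 to 3 and 0 to 3 in PP-cells, 0 to 1 and 6 to 9 in δ- against β-cells, and 0 for age and its interactions. The 2 correlations between α- and β-cells became 0 within young monkeys, within old monkeys, without the 2 farthest monkeys and in clear cells. Within-age and trimmed values of the ATF4 and PPP1R15A correlations with the dissociation genes were chosen after seeing the data. The few δ- and PP-cells limit what could be detected in these types.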
